A study of Mus musculus with 12 samples.

Results

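The 424 genomic windows described here are binding sites of induced GLI1 that stood alone in their list. These lay in chromatin carrying acetylated histone H3 lysine 27 (H3K27ac) both before and after induction. They were selected on peak calls: a site of the GLI1 list was kept if no other site started within 10 kb of its own start and if it shared at least 1 bp with an H3K27ac interval of untreated cells and with one of treated cells. Of 2605 GLI1 sites, 2002 were solitary in this sense, and the 424 made up 21.2% of these (95% exact binomial interval 19.4 to 23.0, counting error only). Of the other solitary sites, 973 lay in an interval of treated cells alone, 594 in none and 11 in an interval of untreated cells alone. Being acetylated in both lists is therefore how the 424 were chosen and is no finding. The GLI1 list holds only windows kept for a Gli motif, so other GLI1 binding within 10 kb is not seen. A region without a GLI1 site likewise means one without a site of this list.

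The cells were cardiac progenitors that had been differentiated from mouse embryonic stem cells of the A2Lox.cre background, line GLI1-FTA, and were harvested on day 6. Treated cells received 500 ng/ml doxycycline (dox) for the 24 hours from day 5, which induced the tagged GLI1, and control cells of the same line were left untreated. The 12 samples formed 6 groups of 2, GLI1 captured on streptavidin beads, for H3K27ac bound by an antibody and for input, in dox and in control cells. The 3 lists used here each pooled the samples of a group, so no spread between replicates exists, nothing was tested between conditions, and no p-value is given. The induction is an overexpression in 1 line, and no list of GLI1 pulled down from untreated cells was analysed here.

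GLI1 is a zinc finger transcription factor at the end of the Hedgehog pathway: ligand bound to Patched frees Smoothened, and GLI proteins then activate target genes, among them Patched and Hhip, which dampen the signal. Hedgehog signalling acts on progenitors of the second heart field. H3K27ac marks active promoters and enhancers. It is carried by nucleosomes, so a bound factor that displaces nucleosomes commonly sits in a dip between acetylated flanks.

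The bases of 13 of the 424 windows could be read, since these lay whole in a promoter entry of RefSeq (build GRCm38.p6, the same assembly as the mm10 of the lists). The following 5 are shown because they hold the GLI consensus TGGGTGGTC, or a word differing from it in 1 letter, and because the whole window lies upstream of an annotated start of a protein-coding gene. Each is written 5′ to 3′ on the strand of its gene, with the matching letters in capitals on whichever strand they were found.
Uaca, chr9:60794197-60794297, gene on the + strand: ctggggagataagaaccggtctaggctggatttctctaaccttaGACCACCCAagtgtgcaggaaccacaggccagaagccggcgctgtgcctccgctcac
Slc25a53, chrX:137038325-137038425, gene on the - strand: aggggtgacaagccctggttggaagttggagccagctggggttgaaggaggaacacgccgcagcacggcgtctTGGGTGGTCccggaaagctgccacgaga
Slc16a9, chr10:70245121-70245221, gene on the + strand: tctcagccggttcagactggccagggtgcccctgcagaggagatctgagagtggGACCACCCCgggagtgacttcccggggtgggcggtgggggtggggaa
Ttc28, chr5:110879632-110879732, gene on the + strand: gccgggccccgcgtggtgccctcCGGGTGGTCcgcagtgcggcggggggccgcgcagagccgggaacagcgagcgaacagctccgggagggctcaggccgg
Thrap3, chr4:126202833-126202933, gene on the - strand: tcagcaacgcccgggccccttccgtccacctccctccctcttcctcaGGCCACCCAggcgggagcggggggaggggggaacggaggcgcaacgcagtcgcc

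Uaca and Slc25a53 held the consensus exactly, Uaca as its reverse complement GACCACCCA. The match lay 2 bp from the middle of the window in Uaca, 1 bp in Thrap3 and 8 bp in Slc16a9, against 23 bp in Ttc28 and 27 bp in Slc25a53. Within 1 letter, on either strand, 7 of the 13 readable windows (53.8%) held a match, compared with 2 of 11 readable windows of the other GLI1 sites. Of 63789 windows of the same length cut from the promoters of 17492 protein-coding genes, 2.20% did so and 0.0549% held the exact word. Of the 21263 whole promoter entries of 300 bp, 6.71% and 0.179% did. The authors kept GLI1 sites for a Gli motif by criteria that are not stated, so a high share follows from how the list was made, and a match is a description of letters.

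All 5 promoters were acetylated before induction, and none of their regions was higher in dox by the limit used here, a log2 ratio of 1. Maximal H3K27ac fold enrichment, the authors' ratio of the pileup at a peak summit to the local background, was 26.0 in control and 34.7 in dox cells at Uaca, which encodes a coiled-coil protein with ankyrin repeats, and 21.7 and 25.1 at Slc25a53, of the mitochondrial carrier family. It was 4.69 and 5.64 at the transporter gene Slc16a9, 10.4 and 11.2 at Ttc28, and 26.4 and 28.9 at Thrap3, a gene of RNA processing. Their log2 ratios, centred as described next, lay between 0.24 (Ttc28) and 0.55 (Uaca). At Thrap3 the control top lay in another interval of the region, and the interval at the site alone had 12.1 and 28.9, a ratio of 1.38.

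To set control and dox cells side by side at every site, overlapping intervals from the 2 lists were joined to 1 region, and the highest fold enrichment of dox cells in a region was divided by the highest of control cells. From the log2 of this ratio the median over the 35389 regions found in both lists, −0.13, was subtracted. A centred ratio of at least 1 is called higher in dox and one of −1 or less lower in dox. The ratio could be formed for 423 of the 424 sites. At the remaining site, 165541 bp from Sptssa, the control and dox intervals both touched the window but not each other. The 2 sites near Ifitm10 shared 1 region of 18933 bp, so 424 sites lay in 423 distinct regions.

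H3K27ac around the solitary sites stood higher in dox cells at most of them, though all were acetylated already. Median fold enrichment was 11.2 in control cells (quartiles 6.43 and 20.6) and 19.0 in dox cells (lower quartile 13.2). The centred log2 ratio had a median of 0.71 (95% interval 0.59 to 0.86, over sites and not over replicates), or 1.63-fold, and 348 of the 423 (82.3%) lay above 0. Of the 423, 173 (40.9%) were higher in dox, where 6.78% of all shared regions were, and 3 (0.71%) were lower, where 8.31% were. Since the rule used both lists, these counts describe the sites and are not read further. In the 34606 shared regions without a GLI1 site the median ratio was −0.01 and medians of fold enrichment were 7.07 and 6.05. The 214 sites with a neighbour within 10 kb and acetylation in both lists gave a median of 0.74, so lone and grouped sites had overlapping intervals (0.54 to 1.01 for the grouped).

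**Figure D1:**
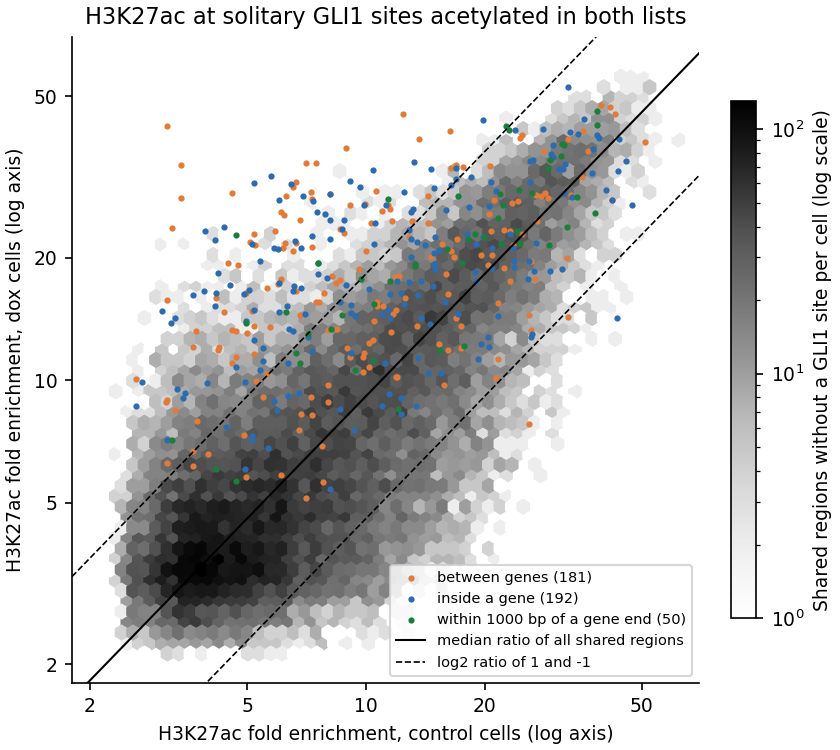
Highest H3K27ac fold enrichment of the region at each of 423 solitary GLI1 sites, control cells on the x axis and dox cells on the y axis (log axes), 1 point per site coloured by its place relative to genes. Grey cells count shared regions without a site, the solid line is the median ratio of all shared regions and the dashed lines are log2 ratios of 1 and −1 from it; 348 of the 423 points lie above the solid line.

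The difference was largest where control acetylation was low and nearly absent where it was high. The 61 sites with a control fold enrichment below 5 had a median ratio of 1.67 (1.61 to 2.01). Of them 86.9% were higher in dox, against 12.1% of shared regions without a site in the same class. Between 5 and 10 the 131 sites had 1.40 (1.19 to 1.56), and between 10 and 20 the 120 sites had 0.54 (0.44 to 0.67). The 111 sites at 20 or more had 0.11 (−0.01 to 0.21), with 1 site higher and 3 lower. Across sites the rank correlation of control enrichment with the ratio was −0.75 (n = 423). The control value is the denominator of the ratio, so some such slope is built in, and it was −0.32 over shared regions without a site.

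Shared regions without a GLI1 site had 0.24, −0.19, −0.19 and −0.06 in the same 4 classes of control enrichment. The GLI1 sites thus stood above them by most below 10 and by little from 20 upward. Their regions were also wider (median 3593 bp against 1177 bp). Within regions under 2000 bp the medians were 0.67 for the GLI1 sites and 0.01 for the rest, from 2000 to 4000 bp 0.93 and −0.10, and from 4000 bp 0.52 and −0.22.

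**Figure D2:**
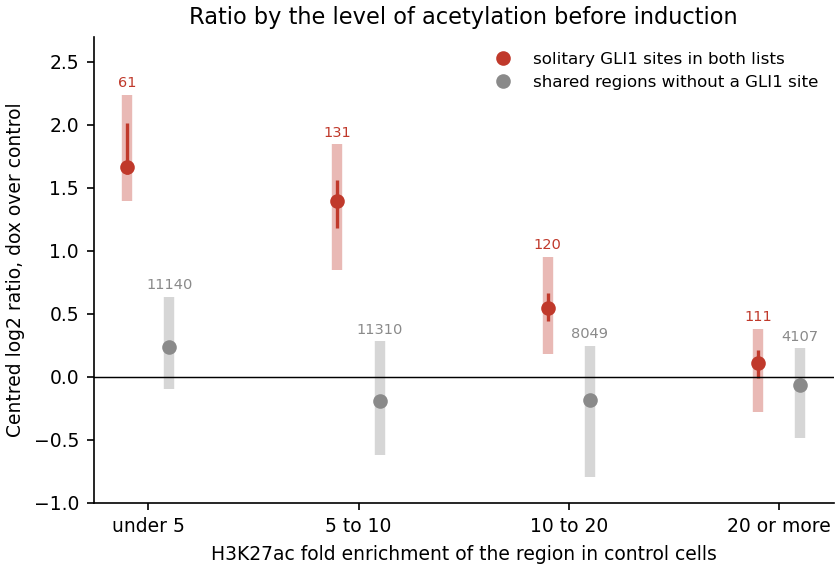
Centred log2 ratio of dox over control H3K27ac (y axis) in 4 classes of control fold enrichment (x axis), as medians (points) with 95% intervals (thin lines) and quartiles (broad bars) for the solitary GLI1 sites and for shared regions without a site. The medians of the sites go from 1.67 in the lowest class to 0.11 in the highest, whereas the other regions stay between −0.19 and 0.24.

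The highest ratios belonged to sites with a weak control peak. The site 15097 bp from Gtf2f2, which encodes a subunit of the general factor TFIIF, went from a fold enrichment of 3.13 in control to 42.3 in dox cells, a ratio of 3.89. Recovered read pileups at the 2 summits were 11 and 199, and the ratio on the pileup scale was 4.08 (3.21 to 5.11, counting error only). The site 104245 bp from Irf8, a gene of an interferon regulatory factor, had 3.39 and 33.9, and that 16853 bp from Psmg1, of a proteasome assembly chaperone, had 3.39 and 28.1. The control interval at these 3 sites had 200, 200 and 290 bp, and the dox interval 4574, 4561 and 3090 bp. The next were the sites near Arhgef28 (3.01), near the syndecan gene Sdc3 (2.79) and inside Susd1 (2.71), Man1c1 (2.69) and Tmtc1 (2.60).

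The regional ratio was past −1 at 3 sites, and at none of these was the ratio of the summits nearest to the GLI1 site. The site inside Ahnak, which encodes a giant scaffold protein, lay in a region whose top was 43.4 in control and 14.3 in dox cells (−1.47), but the summits nearest to it had 9.99 and 13.8 (0.60). At the site 18848 bp from Laptm4a, of a lysosomal membrane protein, the regional ratio was −1.05 and that of the nearest summits 0.00. The site 6623 bp from Dym had −1.59 for the region (25.8 and 7.82), −1.59 for the interval at the site, −0.48 at the nearest summits and −0.87 on the pileup scale. The next lowest were the sites near Hes1, a Notch target encoding a repressor (−0.94 for the region and at the nearest summits), and inside Ece1, of an endothelin-converting enzyme (−0.90 for both). Sites inside Lrrfip1 (−0.89), near Ppcdc (−0.85) and near the claudin gene Cldn23 (−0.81) followed.

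By the top of the region, the 5 sites with the most control acetylation were all at or below the typical ratio. They were chosen by the control value, which is the denominator of that ratio. The site 62681 bp from Irs2, of an insulin receptor substrate, had the highest control value, 51.1, and 38.6 in dox cells (−0.27). Sites inside Sh3bp5 (47.1 in control, ratio −0.67), Rnd3 (45.7 and 34.6), Igdcc3 (43.8 and 39.1) and Sh3bp4 (43.5 and 32.7) followed. Inside Sh3bp5 the single interval at the site gave 0.95 where its whole region gave −0.67, because the control top lay in another interval of the region. At the summits nearest to the site the ratio was −0.59 for Irs2. It was 0.21 for Sh3bp5, 0.47 for Rnd3, 0.34 for Igdcc3 and 0.65 for Sh3bp4.

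GLI1 binding strength was not used to choose the sites. The authors' −log10 q had a median of 30.3 (27.9 to 33.4) at the 424 sites, lower than 37.3 (35.0 to 40.3) at solitary sites acetylated in dox cells alone and higher than 25.0 (23.7 to 26.7) at solitary sites in no acetylated interval. Grouped sites acetylated in both lists had 28.2 (23.6 to 34.6). The q value depends on the depth of 1 pooled library and ranks sites within this list only.

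**Figure D3:**
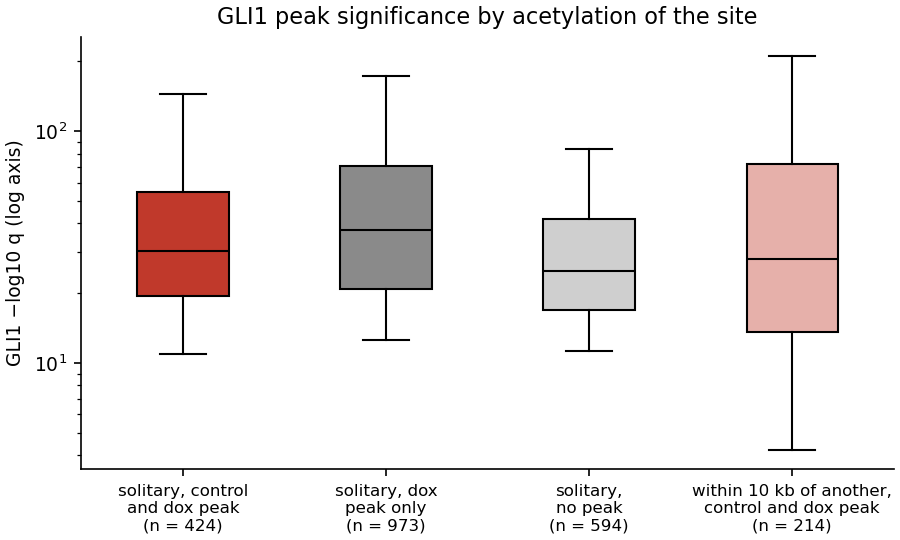
GLI1 −log10 q (y axis, log scale) of 4 classes of GLI1 site (x axis), as boxes from the lower to the upper quartile with the median as a line and whiskers at the 5th and 95th percentiles. The 424 solitary sites acetylated in both lists (median 30.3) sit below those acetylated in dox cells alone (37.3) and above those in no interval (25.0), with wide overlap of the boxes.

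Stronger GLI1 sites had more H3K27ac in dox cells at about the same control level. In 4 equal classes of the sites from the lowest to the highest −log10 q, median dox fold enrichment was 16.0, 15.4, 19.4 and 25.5, whereas median control enrichment was 12.3, 10.7, 10.4 and 12.4. The median ratios were 0.52 (0.40 to 0.88), 0.54 (0.33 to 0.71), 0.85 (0.59 to 1.21) and 0.94 (0.69 to 1.35). The intervals of neighbouring classes overlap, and that of the strongest overlaps that of the weakest. Median region width was 3224, 2877, 3445 and 4790 bp in the same classes. Enrichment is the top of a region, and the part of width in it was not tested. Over 423 sites the rank correlation of −log10 q was 0.30 with dox enrichment, 0.00 with control enrichment and 0.22 with the ratio. All sites share the same 3 pooled libraries.

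The strongest GLI1 site of the set lay far from any protein-coding gene, 449050 bp from the cadherin gene Cdh11 (chromosome 8, 103234493 to 103234593, −log10 q 395). Its H3K27ac was 7.49 in control and 34.3 in dox cells. The site 418343 bp from Adgrl2, of an adhesion receptor of the latrophilin family, had −log10 q 318.5 and H3K27ac of 6.27 and 28.3. By the top of the region, the other strong sites were more acetylated before induction and differed less. Values were 24.9 and 40.1 at 21433 bp from Mtcl1 (ratio 0.82) and 20.6 and 33.7 at 16163 bp from Atp5mpl (0.84). Dock6 had 20.8 and 30.7 at a site inside it (0.70). Inside Sh3pxd2a, which encodes a podosome scaffold, the region gave 0.67, but the interval at the site had 6.92 and 26.6 (2.08). The site 23829 bp from Podxl had −log10 q 227 and lies beside a peak number that the lists skip, so no ratio is given for it.

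Sites acetylated before induction were more often at gene ends than the other solitary sites. H3K27ac marks active promoters and the rule required a control interval, so an excess over sites without one can follow from the choice. The share of gene ends among acetylated regions without a GLI1 site is not given here. Of the 424, 50 (11.8%, 8.88 to 15.3) lay within 1000 bp of either outer end of a protein-coding gene, against 27 of 973 (2.77%, 1.84 to 4.01) of those acetylated in dox cells alone and 19 of 594 (3.20%, 1.94 to 4.95) of those in no interval. Grouped sites acetylated in both lists had 16 of 214 (7.48%, 4.33 to 11.9), an interval that overlaps that of the 424. A further 192 lay inside a gene and 182 between genes. The annotation gives outer gene ends without strand or exons, so neither starts and ends nor exons and introns are separated. The median distance to a gene end was 22124 bp, against 38485 and 36267 bp in the other 2 solitary classes and 20627 bp at the grouped sites.

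At gene ends median control acetylation was higher and the median ratio lower than at the other sites. The median GLI1 −log10 q of the 50 sites was 23.6 (16.9 to 29.8), against 32.4 (28.4 to 37.4) inside genes and 31.3 (26.9 to 34.7) between genes, with overlapping intervals. The 50 sites had fold enrichments of 17.6 and 21.7, and a ratio of 0.41 (0.33 to 0.67), and 8 were higher in dox. Sites inside genes had 0.74 (0.58 to 0.97), with 80 higher, and those between genes 0.86 (0.55 to 1.13), with 85 higher, so the intervals overlap. Their control medians were 11.5 and 9.92. Of the 8 gene-end sites with the strongest GLI1, the largest ratio was that of Usp43, a deubiquitinase gene (4.69 and 22.8, ratio 2.42). BC034090 had 22.7 and 42.2 (1.03). The sites at the adaptor gene Nck2 (0.33), at Slc16a9 (0.40), at the netrin gene Ntn3 (0.67) and at Has2, of a hyaluronan synthase (−0.05), lay under 1.

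The position of H3K27ac summits around the sites also differed between the lists. From the middle of the site to the nearest summit the median was 197.5 bp in control (182 to 211) and 265 bp in dox cells (253 to 274), close to the 273 bp (266 to 281) of solitary sites acetylated in dox cells alone. A control summit lay within 100 bp of 100 of the 424 sites (23.6%, 19.6 to 27.9), and a dox summit within 100 bp of 35 (8.25%, 5.82 to 11.3). Site by site, the nearest summit was farther in dox cells at 296, nearer at 127 and at the same distance at 1, with a median difference of 41 bp (30 to 56).

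In dox cells 398 sites (93.9%) lay between 2 summits of 1 interval, and in control cells 255 (60.1%). This needs an interval with at least 2 summits, and the median number was 3 in control and 6 in dox intervals. How far the summit number accounts for these shares was not tested. At the 250 sites flanked in both lists the gap between the flanking summits was 611.5 bp in control and 707.5 bp in dox cells, a median difference of 56 bp (39 to 89). The class of the 106 strongest GLI1 sites had 224 bp in control and 328 bp in dox cells, and 3 of them had a dox summit within 100 bp. The order of the 2 lists depended on the summits and sites used. When summits with a −log10 q of at least 10 alone were used, the control distance was 294.5 bp and the dox distance 269 bp, so the order turned. All sites were kept there, also any without such a control summit in their own interval, for which the nearest one lay elsewhere. For the 324 sites chosen with such peaks the distances were 234 bp and 268 bp, which keeps the order. At the 111 sites with a control fold enrichment of 20 or more for the region, the distances were 234 bp (204 to 279) and 279 bp (257 to 302), whose intervals overlap.

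**Figure D4:**
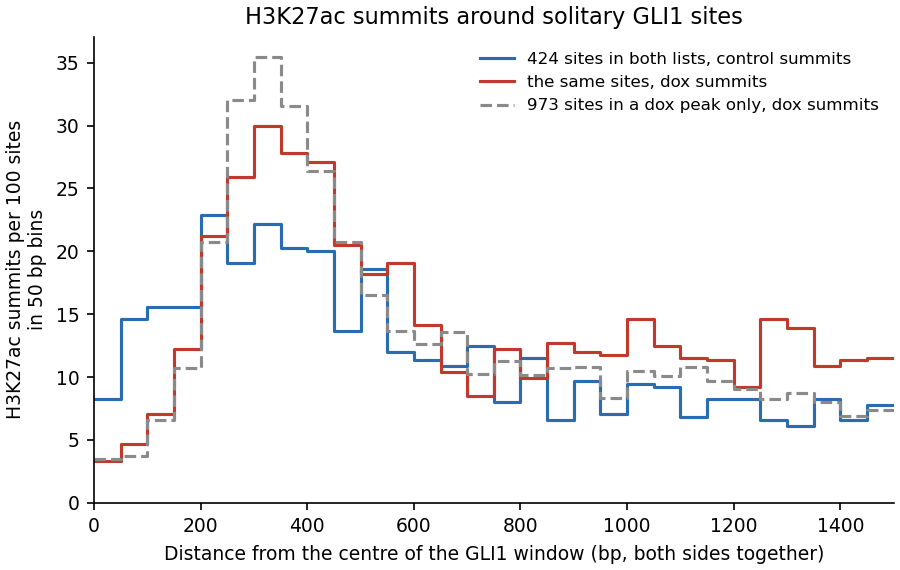
H3K27ac summits per 100 sites (y axis) in steps of 50 bp by distance from the middle of the GLI1 site (x axis, bp), for control and dox summits at the 424 sites and, dashed, dox summits at 973 solitary sites acetylated in dox cells alone. In the first 50 bp there were 8.25 control and 3.30 dox summits per 100 sites, and between 300 and 350 bp 22.2 and 30.0.

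Acetylated intervals at the sites were longer in dox cells. Their median width was 1701 bp (1520 to 1895) in control and 3371.5 bp (3164 to 3586) in dox cells, with a wider dox interval at 357 of 424 sites (84.2%) and a median of 3 and 6 summits per interval. Separate control intervals were commonly joined: 185 of 422 regions (43.8%) had at least 2 control intervals and 1 dox interval, and 27 (6.40%) the opposite, against 11.1% and 13.0% of shared regions without a site. The bases covered by intervals within a region were 1.35 times as many in dox as in control cells (1.28 to 1.44), against 0.968 times in shared regions without a site. An interval reaches as far as the signal passes the caller's threshold, and the recovered background put the dox pool at 1.28 times the control depth, whose part in the widths was not tested.

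Sites near genes of the Hedgehog list and of heart lists were found through gene lists and not by their ratios. The lists themselves were chosen with earlier results of these data known. A solitary acetylated site lay within 50000 bp of 6 of 48 Hedgehog pathway genes and GLI targets (Ccnd2, Cdk6, Hhip, Ptch1, Rab34 and Sufu), compared with 3.44% of all 21887 protein-coding genes. The count was 7 of 40 for genes of the sarcomere and calcium handling, 4 of 37 for BMP, Wnt, FGF, Notch and TGF-beta signalling, 3 of 34 for cardiac transcription factors, 2 of 25 for mesoderm and second heart field, and 0 of 15 for housekeeping genes. Any GLI1 site at all lay near 24 of the 48 Hedgehog genes and near 10 of the 40 sarcomere genes, so 7 of the 10 sarcomere genes with a GLI1 site had one of the solitary acetylated kind, and 6 of the 24 Hedgehog genes, against 754 of 2825 over all protein-coding genes with a GLI1 site.

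Among sites whose nearest gene is on the Hedgehog list, the distal ones and that inside Hhip were higher in dox cells. Hhip, whose product sequesters Hedgehog ligands, had a site inside it (chromosome 8, 80049468 to 80049568, −log10 q 156), with the nearest summits at 3.22 in control and 15.6 in dox cells, and the interval at the site had 1791 bp and 10304 bp. A second site lay 195696 bp from Hhip (5.20 and 22.9, ratio 2.27). Ccnd2, which encodes cyclin D2, was the nearest gene of 2 sites, both outside the gene, that differed in ratio. Its site at 1158 bp had 22.4 and 23.4 (0.20) and that at 98985 bp 7.28 and 29.0 (2.13), although GLI1 was stronger at the near one (−log10 q 93.0 and 38.3).

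Sites 170556 bp from Foxl1 and 119075 bp from Foxd1, both genes of forkhead factors, had ratios of 1.84 and 1.58. The site in Rab34, of a small GTPase needed for cilium formation, had the highest dox value of the Hedgehog sites, 52.6, over a control value of 32.5 (0.83), and its nearest summits had 14.5 and 15.4. The site inside Cdk6, of a cyclin-dependent kinase, was acetylated less in dox cells (29.2 and 18.6, −0.52). Ptch1 and Sufu had solitary acetylated sites within 50000 bp that were nearer to other genes.

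**Figure D5:**
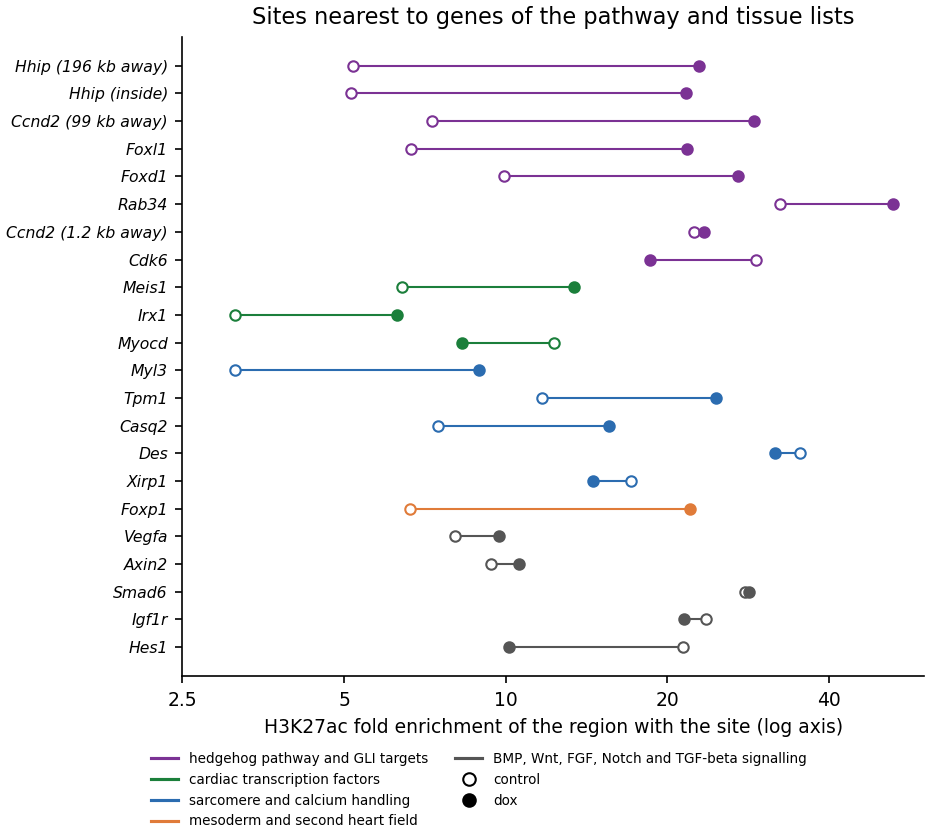
Control and dox H3K27ac fold enrichment (x axis) (log axis; open points control, filled points dox) of the regions at solitary sites whose nearest gene is on one of the pathway or tissue lists, 1 line per site. Both Hhip sites and the distal Ccnd2 site have the highest ratios (2.20, 2.27 and 2.13), and Hes1, Cdk6 and Myocd the lowest (−0.94, −0.52 and −0.44).

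Near genes of the contractile apparatus 3 of 5 sites were higher in dox, where 40.9% of all 423 sites were. So few sites cannot be told apart from that share. The site 4822 bp from Myl3, of a myosin light chain, had 3.13 in control and 8.93 in dox cells (1.64), that 21743 bp from the tropomyosin gene Tpm1 had 11.7 and 24.6 (1.21), and that 2317 bp from Casq2, of cardiac calsequestrin, had 7.48 and 15.6 (1.19). At Tpm1 the nearest summits differed little (11.7 and 12.6). The sites 15799 bp from the desmin gene Des (35.3 and 31.7, −0.02) and inside Xirp1 (17.1 and 14.6, −0.10) stood at the typical ratio. None of these 5 was lower in dox by the limit of −1, which 0.71% of all 423 sites passed.

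Cardiac transcription factor genes had 3 such sites. That inside Myocd, which encodes the SRF coactivator myocardin, had 12.3 and 8.27 (−0.44), while its nearest summits had 8.11 and 8.27. That inside the homeobox gene Meis1 had 6.40 and 13.4 (1.20), and that 341614 bp from Irx1 had 3.13 and 6.27 (1.13). Inside Foxp1, of a forkhead factor of the developing heart, fold enrichment was 6.63 and 22.0 (1.86). None of the 5 sites of signalling genes was past the limit in either direction, where 40.9% of all 423 sites were higher and 0.71% lower. Ratios were 0.41 near Vegfa, 0.16 near Smad6, an inhibitory SMAD, −0.00 near Igf1r and −0.94 near Hes1. At the end of Axin2, a Wnt feedback inhibitor, the region gave 0.31 and the nearest summits 7.29 and 3.95.

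The label of the cells was checked at marker genes, as H3K27ac within 1000 bp of a gene end. Of 9 cardiac progenitor markers, Isl1, Hand2, Tnnt2, Actc1 and Myl7 had a region in control cells, and Isl1, Hand2 and Tnnt2 in dox cells, whereas Nkx2-5, Gata4, Tbx5 and Mef2c had none in either list, and none of the markers lay at a stretch where peak numbers skip. Of the other markers, 2 of 5 pluripotency genes (Nanog and Sox2) and 1 of 4 neural genes (Nes) had a region in both lists. Endothelial and blood genes had 2 of 6 in control and 4 of 6 in dox cells, and endoderm genes 0 of 4 and 2 of 4 (Foxa2 and Ttr). Their part in the values at the GLI1 sites was not tested.

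The rule has 2 edges, the distance to the next site and the overlap with a control interval. Just inside the 10 kb limit, the site near Ube2v1 had its neighbour at 10337 bp (ratio 2.06) and the 2 sites near P3h2 lay 10510 bp apart (0.13 and 1.68). Just outside, the sites near Exoc2 (9943 bp), Lrig1 (9878 bp) and Ercc6l2 (9394 bp) had ratios from 1.91 to 2.32. The control interval shared 1 bp with the site near Ccdc146 and 4 bp with those near Fry and Rnf220, and it missed the sites near Blk, Tle3 and Prim2 by 1, 2 and 4 bp. In all, 83 of the 424 windows were in part outside their control interval, and 135 of the 973 solitary sites acetylated in dox cells alone (13.9%) lay within 500 bp of a control interval.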

How the data were processed

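Chromatin from control and dox cells was profiled for tagged GLI1 and H3K27ac. Bowtie2 2.3.2, SAMtools 1.5, MACS2 2.1.1 and build mm10 are named, without roles, per the submitters' processing notes. Per the names in the deposited lists, the authors called peaks on combined replicates and removed blacklisted regions. Their H3K27ac values are a fold enrichment, a ratio to local background, with −log10 p and −log10 q of each summit and a deposited score that equals 10 times the −log10 q and was not used. The authors' GLI1 windows around summits carry a −log10 q. Reads per library are not known from the lists, but whole-number pileups returning the deposited values within 0.01 were found for 100.0% of summits, with uniform backgrounds of 2.83 (control) and 3.63 (dox) reads.

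Overlaps, regions and ratios were computed with Python 3.11.15, numpy 2.4.6, pandas 2.3.3 and scipy 1.17.1, and tested on simulated data. Intervals of shares are exact binomial and those of medians come from order statistics. They cover counting error or the spread over sites, never replicates. Genes came from a GRCm38.p6 table. A site is named by its nearest protein-coding gene. Named were the 8 sites with the highest GLI1 −log10 q, the 8 highest and 8 lowest ratios, the 5 highest control enrichments, the 8 gene-end sites with the strongest GLI1 and up to 8 sites per gene list, of which 1 gene-end site is not reported here; the printed promoters are those with a motif match upstream of a start. The sites, lists and rules were chosen with earlier results of these data known. Alternatives covered the 10 kb limit, the overlap, the peak threshold, the ratio measure, the centring, the summits and the gene-end window.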

Additional observations from a re-analysis of the deposited data

How the results depend on the processing

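No paired analysis was possible because the lists pool the 2 samples of each group, and for the same reason no sample could be left out. Of 59 alternatives computed, 43 stayed close to the reported value (a count within 1.5 times it, a median or share within its interval), 16 did not and none turned the direction of the median ratio, which ranged from 0.43 to 0.86 over 12 alternatives (0.71 as reported). With H3K27ac peaks of −log10 q of at least 10 it was 0.47 and 95 sites were higher in dox. With the interval at the site it was 0.86, without centring 0.58, and with pileups over the ratio of backgrounds 0.43. The 3 sites lower in dox became 6 with the interval at the site, 5 with the nearest summit, 5 with the width-weighted mean, 6 without centring and 8 with pileups over backgrounds. The control summit distance was 294.5 bp with summits of −log10 q of at least 10, which reverses its order against dox. For sites chosen with such peaks it was 234 bp against 268 bp in dox cells, which keeps the order. The latter alternative was added after seeing the data. Gene-end windows of 2500 and 5000 bp held 19.6% and 23.6% of the sites. The merged region was 3586.5 bp wide, being the same for both lists. With 1 pooled list per condition, no difference between control and dox cells has a replicate check.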

Other observations

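Beyond their own regions, the sites lay in neighbourhoods with more acetylated regions found in dox cells alone than in control cells alone. Within 50000 bp of a site there was a mean of 6.19 regions of dox cells alone and 2.85 of control cells alone, 2.17 of the former for each of the latter, and the former outnumbered the latter around 65.3% of the 424 sites and the reverse held around 24.3%. Around shared regions without a GLI1 site the means were 3.16 and 2.78. Around solitary sites acetylated in dox cells alone the ratio was 4.75, of which the region at the site is 1 part by the choice of those sites, and around those in no interval it was 2.61.

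Irs2, Pim1, a gene of a serine/threonine kinase, and Pknox2, of a homeobox factor, were each the nearest gene of 3 sites. The 3 sites of Pim1 had 28.4 and 28.9, 39.4 and 47.5, and 29.2 and 21.5 in control and dox cells, all strongly acetylated in both. The 3 inside Pknox2 had 6.33 and 9.12, 15.9 and 26.2, and 16.4 and 30.3, all higher in dox cells by value with ratios of 0.66, 0.85 and 1.01. The share of GLI1 sites that were solitary and acetylated in both lists ranged from 10.6% (18 of 170) on chromosome 13 to 24.3% (26 of 107) on chromosome 17.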
